A study of Homo sapiens with 6 samples.

Results

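The enzymes that hydroxylate collagen and the oxidases that cross-link it form a set of 10 genes among the 57232 genes in the deposited table. They are the lysyl hydroxylases PLOD1, PLOD2 and PLOD3, the prolyl 4-hydroxylase alpha subunits P4HA1 and P4HA2, and the lysyl oxidases LOX, LOXL1, LOXL2, LOXL3 and LOXL4. Members were found by their gene symbols, and each symbol matched 1 row. The set was chosen from earlier results of this same comparison, so its differences between the groups are given as a description and support nothing by themselves. RNA was sequenced from IMR90 cells, a human fetal lung fibroblast line at passage 13, infected with an empty vector (3 libraries) or with ARID1B cDNA (3 libraries). ARID1B is a DNA-binding subunit of the SWI/SNF chromatin remodeling complex, and the comparison asks how the transcriptome of fibroblasts differs when it is expressed in excess. Puromycin (0.8 µg) was kept on both groups until day 4, and RNA was taken on day 6. The study calls the 3 libraries of a group biological replicates.

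Collagen is modified inside and outside the cell before it can bear load. In the endoplasmic reticulum, prolyl 4-hydroxylases convert prolines of the procollagen chain to hydroxyproline, which holds the triple helix together, and lysyl hydroxylases convert lysines to hydroxylysine. These enzymes need oxygen, iron, 2-oxoglutarate and ascorbate. Outside the cell, the lysyl oxidases, which carry copper, oxidize lysines and hydroxylysines to reactive aldehydes that condense into the cross-links of collagen and elastin. Fibroblasts are a main source of all 3 enzyme families, and genes of each family are known to respond to hypoxia and to TGF-beta.

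Levels are in FPKM, that is, fragments relative to gene length and library size, and the values of a group are listed in the order of replicates 1, 2 and 3. Library totals, read from the steps between FPKM values, lay between 63386813 and 91924514 reads or fragments, and each member held between 503 and 109114 of them in each library. Vector replicate 2 stood apart: it scored 48.5 on the first principal component (63.8% of variance), where the other 5 libraries scored -20.0 to 3.63. Replicate 3 of each group lay near a mixture of replicates 1 and 2 (with weights on replicate 1 of 83.2% in the vector group and 76.8% in the ARID1B group by least squares), and if it were one, each group would hold 2 independent samples. ARID1B itself stood at 2.29, 1.31 and 2.05 FPKM with the vector and at 32.5, 21.0 and 28.3 FPKM with ARID1B. All 12 of 12 lung fibroblast markers were measured, with a summed level from 1969 to 2674 FPKM with the vector and from 1935 to 2703 FPKM with ARID1B, most of it from COL1A1, VIM and COL1A2. Of these markers LUM was higher without overlap (26.5 against 68.5 FPKM in the mean), and S100A4 (8.90 against 4.96 FPKM) and VIM (677 against 498 FPKM) were lower without overlap. Vector replicate 2 weighed on these means. LUM was lowest there (42.4, 4.21 and 33.0 FPKM with the vector), and VIM was highest there (846 FPKM). Blood cell markers summed to at most 0.102 FPKM, and of 7 endothelial markers measured 6 never reached 1 FPKM. Of 10 epithelial markers 8 never reached 1 FPKM, while KRT19, the only 1 that entered the test, was highest in vector replicate 2 (14.3 FPKM). Smooth muscle markers summed to 30.4 to 37.2 FPKM with the vector and 34.0 to 37.0 FPKM with ARID1B. LMOD1 (8.08 to 21.0 FPKM over all libraries), CNN1 (6.76 to 11.6 FPKM) and SMTN (4.06 to 17.0 FPKM) entered the test and overlapped between the groups. CNN1 and SMTN were highest in vector replicate 2, and MYH11 and MYOCD were under 1 FPKM. In bulk RNA fewer cells of a type and less RNA per cell cannot be told apart.

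All 10 members had a mean of at least 1 FPKM and entered the test over 10416 genes, made with limma on log2(FPKM + 1) with a threshold of 0.05 for the adjusted p. PLOD2, LOX, P4HA1, LOXL2 and P4HA2 were higher in all ARID1B libraries than in all vector libraries, LOXL1 was lower in all, and PLOD1, PLOD3, LOXL3 and LOXL4 overlapped between the groups. Over all genes tested, groups did not overlap in 20.5% (9.44% higher and 11.1% lower with ARID1B). None of the 10 members passed the threshold of limma, and 0.0288% of all genes did. PLOD2 (adjusted p = 0.129 from limma) and LOX (adjusted p = 0.165) came closest, and since the members were chosen on this contrast nothing is read from these counts. The members had a median log2 change of 0.08, against -0.02 over all genes tested, with 6 positive and 4 negative changes.

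Promoters of 9 members were found in RefSeq (GRCh38.p14, a later build than the hg19 that the submitters name), all but that of LOXL2. The 250 bases before the annotated start are shown for the 3 members with the largest positive changes, with LOXL1 as the member that was lower without overlap. Capitals mark ACGTG on either strand, the core of the element that hypoxia-inducible factors bind.
PLOD2, chr3:146161185-146161434, minus strand: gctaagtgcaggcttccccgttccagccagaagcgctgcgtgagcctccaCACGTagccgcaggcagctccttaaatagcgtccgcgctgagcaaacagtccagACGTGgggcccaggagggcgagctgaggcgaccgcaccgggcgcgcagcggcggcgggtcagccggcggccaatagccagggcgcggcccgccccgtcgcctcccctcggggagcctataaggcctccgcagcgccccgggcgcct
LOX, chr5:122078260-122078509, minus strand: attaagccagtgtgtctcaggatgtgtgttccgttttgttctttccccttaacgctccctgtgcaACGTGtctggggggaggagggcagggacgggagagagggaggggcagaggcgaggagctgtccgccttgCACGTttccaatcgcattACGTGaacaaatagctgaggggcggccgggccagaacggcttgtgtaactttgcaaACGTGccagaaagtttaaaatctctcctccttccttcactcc
P4HA1, chr10:73096867-73097116, minus strand: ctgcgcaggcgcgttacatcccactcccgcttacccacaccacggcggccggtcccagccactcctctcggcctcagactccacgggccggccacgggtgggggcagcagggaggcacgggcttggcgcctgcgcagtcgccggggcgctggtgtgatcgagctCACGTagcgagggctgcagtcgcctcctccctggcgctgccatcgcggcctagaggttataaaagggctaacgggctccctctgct
LOXL1, chr15:73926212-73926461, plus strand: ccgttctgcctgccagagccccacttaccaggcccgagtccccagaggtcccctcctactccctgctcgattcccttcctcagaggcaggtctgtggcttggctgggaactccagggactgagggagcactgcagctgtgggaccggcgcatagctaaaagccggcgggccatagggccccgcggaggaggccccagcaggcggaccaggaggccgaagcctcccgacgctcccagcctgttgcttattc
The start furthest upstream is shown for LOX, which has 3 annotated starts.

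PLOD2, LOX and P4HA1 held ACGTG in these windows, and the other 6 members with a promoter did not. Among 35116 promoter windows of the same length, 18.5% held it on either strand. PLOD2 held 2 copies, at 200 and 146 bases before its start, and P4HA1 1 copy at 86 bases. LOX held 4 copies, at 185, 116, 98 and 42 bases, in the window shown and 1 copy, the same site, in the overlapping windows at its other starts. The related core GCGTG, held by 32.2% of all windows, occurred in PLOD1, PLOD2, 1 of the LOXL3 windows and the later LOX windows. TGANTCA, the core of the AP-1 element (6.57% of all windows), occurred in none of the members, and TATAAA (10.7% of all windows) in P4HA1 alone. The motifs were searched with the values known, and a match is only a match of letters.

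Among the lysyl hydroxylases, PLOD2 stood out. Its product hydroxylates lysines in the telopeptides, the ends of the collagen chain where cross-links start. PLOD2 (ENSG00000152952) stood at 10.3, 7.75 and 9.33 FPKM with the vector and at 21.8, 19.0 and 23.9 FPKM with ARID1B. The lowest ARID1B library thus lay well above the highest vector library, and the means were 9.14 ± 1.31 FPKM and 21.6 ± 2.44 FPKM (SD, n = 3 each). The log2 change was 1.16 (standard error 0.146), or 2.23-fold on the log2(FPKM + 1) scale, and 1.05 without vector replicate 2. The table does not separate the splice forms of PLOD2.

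PLOD1 (ENSG00000083444), which hydroxylates lysines within the helix, stood at 37.4, 59.3 and 41.3 FPKM with the vector and at 49.9, 45.8 and 46.0 FPKM with ARID1B. Vector replicate 2 was the highest library and the other vector libraries were the lowest, so the groups overlapped. The log2 change was 0.06 (standard error 0.187) with all libraries and 0.26 (standard error 0.0899) without vector replicate 2. PLOD3 (ENSG00000106397), whose product also adds sugars to hydroxylysine, showed the same split within the vector group. It stood at 13.7, 29.4 and 16.4 FPKM with the vector and at 17.3, 13.1 and 15.3 FPKM with ARID1B. The log2 change of PLOD3 was -0.30 (standard error 0.282), and 0.01 without vector replicate 2, which held 1.96 times the mean of the other vector libraries. ZNHIT1, whose exons overlap PLOD3 on the opposite strand, was also highest there (6.32, 14.8 and 7.85 FPKM with the vector).

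The balance within this family differed between the groups. PLOD2 made up 16.8%, 8.04% and 13.9% of the summed FPKM of the 3 lysyl hydroxylases with the vector and 24.5%, 24.4% and 28.0% with ARID1B, with no overlap. The summed level itself overlapped, from 61.5 to 96.4 FPKM with the vector and from 77.9 to 89.0 FPKM with ARID1B. PLOD1 made up the largest share in all 6 libraries, at 60.9% to 61.7% with the vector and 54.0% to 58.8% with ARID1B. PLOD3 made up 22.3% to 30.5% with the vector and 16.8% to 19.4% with ARID1B. The shares of PLOD1 and PLOD3 thus did not overlap either, both being lower with ARID1B. Their levels in FPKM did overlap, and a larger share of PLOD2 lowers theirs by arithmetic.

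The alpha subunits of prolyl 4-hydroxylase carry the catalytic site of a tetramer whose beta subunit is P4HB. P4HA1 (ENSG00000122884), the main alpha subunit of fibroblasts, stood at 34.6, 23.7 and 33.8 FPKM with the vector and at 43.4, 53.6 and 49.3 FPKM with ARID1B. All 3 ARID1B libraries were higher than the vector libraries, of which vector replicate 2 was the lowest. The log2 change was 0.67 (standard error 0.181), or 1.59-fold, and 0.49 (standard error 0.110) without that library. P4HA2 (ENSG00000072682) varied least of the members among the vector libraries, at 9.51, 9.43 and 9.40 FPKM, and stood at 10.0, 10.7 and 10.0 FPKM with ARID1B. The groups of P4HA2 did not overlap, but the log2 change was 0.10 (standard error 0.0938). P4HB, which was not a member, stood at 67.6, 98.6 and 74.3 FPKM with the vector and at 81.7, 72.8 and 76.6 FPKM with ARID1B and overlapped. P4HA1 made up 71.5% to 78.5% of the summed alpha subunits with the vector and 81.3% to 83.4% with ARID1B.

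By FPKM as deposited, LOX had the highest mean of the members in both groups, with PLOD1 above it in vector replicate 2, but with the vector this order depends on gene length, as given further on. Its product is the oxidase that cross-links fibrillar collagen and elastin. LOX (ENSG00000113083) stood at 75.0, 58.6 and 65.9 FPKM with the vector and at 119.6, 149 and 141 FPKM with ARID1B. The groups lay far apart, with means of 66.5 ± 8.22 FPKM and 137 ± 15.3 FPKM (SD, n = 3 each). The log2 change was 1.03 (standard error 0.150), or 2.04-fold, and 0.94 (standard error 0.129) without vector replicate 2. In GENCODE v29 an exon of SRFBP1 overlaps LOX on the opposite strand, and SRFBP1 stood at 2.36 to 4.36 FPKM.

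LOXL1 (ENSG00000129038), the oxidase that maintains elastic fibers, went the other way. It stood at 43.3, 45.5 and 45.5 FPKM with the vector and at 37.9, 26.5 and 33.7 FPKM with ARID1B. The vector libraries agreed closely while the ARID1B libraries spread, and the means were 44.8 ± 1.28 FPKM and 32.7 ± 5.76 FPKM (SD, n = 3 each). The log2 change of LOXL1 was -0.46 (standard error 0.153), and -0.44 without vector replicate 2. LOXL1-AS1, the antisense gene whose exons overlap it, stood at 1.86 to 2.49 FPKM. The libraries came from a stranded kit, but whether the counting used strand is not given in the sources used here, so reads of overlapping genes may be shared.

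LOXL2 (ENSG00000134013), known for cross-linking type IV collagen, stood at 56.8, 54.4 and 57.0 FPKM with the vector and at 74.8, 66.3 and 69.7 FPKM with ARID1B. Its difference was small but exceeded the spread within the groups, with a log2 change of 0.32 (standard error 0.108), and 0.30 without vector replicate 2. In GENCODE v29 LOXL2 shares exon sequence with ENTPD4 on the same strand, which stood at 8.35 to 11.5 FPKM with the vector and 12.6 to 15.2 FPKM with ARID1B. The part of shared reads in the level of LOXL2 was not tested.

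LOXL4 (ENSG00000138131) showed the largest split within the vector group. It stood at 18.3, 5.36 and 16.4 FPKM with the vector and at 11.7, 12.1 and 11.6 FPKM with ARID1B. The ARID1B libraries were nearly alike and lay between vector replicate 2 and the other vector libraries. With all libraries the log2 change was -0.01 (standard error 0.415), and without vector replicate 2 it was -0.52 (standard error 0.0813). LOXL3 (ENSG00000115318) was the lowest member, at 1.89, 1.07 and 1.78 FPKM with the vector and at 0.751, 1.61 and 0.965 FPKM with ARID1B. The groups of LOXL3 overlapped, with a log2 change of -0.30 (standard error 0.198), and -0.45 without vector replicate 2. Exons of DOK1 and HTRA2 overlap it on the opposite strand.

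**Figure D1:**
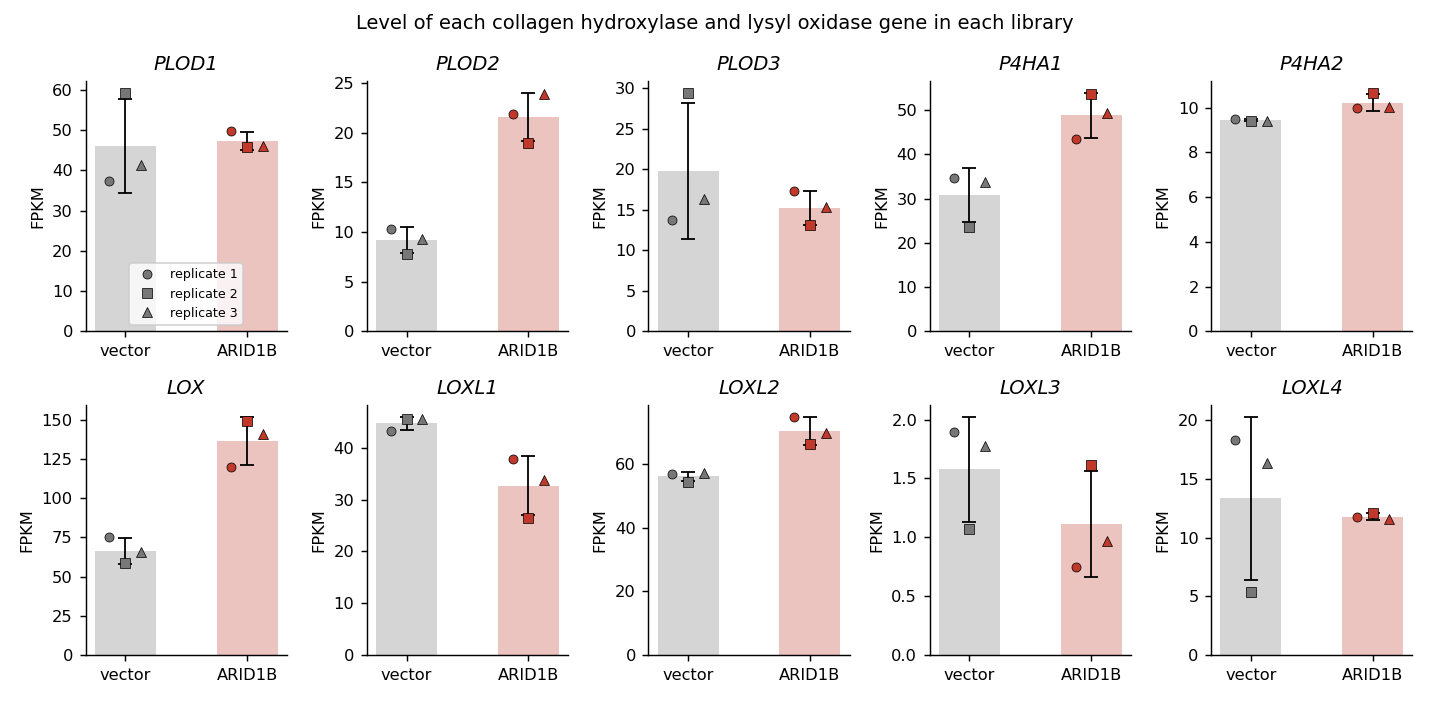
Levels of the 10 members in FPKM, by library, with the vector in gray and ARID1B in red, on linear axes from 0. A bar with whiskers is a group's mean and SD (3 libraries), marker shapes show replicate numbers, and the square of vector replicate 2 lies apart from the other vector libraries for PLOD1, PLOD3 and LOXL4.

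With ARID1B the lysyl oxidases had a higher summed level (mean 182 against 252 FPKM), and LOX made up nearly all of the net rise. The mean of LOX went from 66.5 to 137 FPKM and that of LOXL2 from 56.1 to 70.3 FPKM. The means of LOXL1 (44.8 to 32.7 FPKM), LOXL4 (13.3 to 11.8 FPKM) and LOXL3 (1.58 to 1.11 FPKM) were lower. The summed level of the 5 genes was 195, 165 and 187 FPKM with the vector and 245, 256 and 257 FPKM with ARID1B. LOX made up 35.3% to 38.4% of that sum with the vector and 48.9% to 58.3% with ARID1B. LOXL1 made up 22.2% to 27.6% with the vector and 10.4% to 15.5% with ARID1B, and the shares of LOXL2 and LOXL4 overlapped. The shares add to a fixed sum, so they show unequal change and not that any gene was constant.

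**Figure D2:**
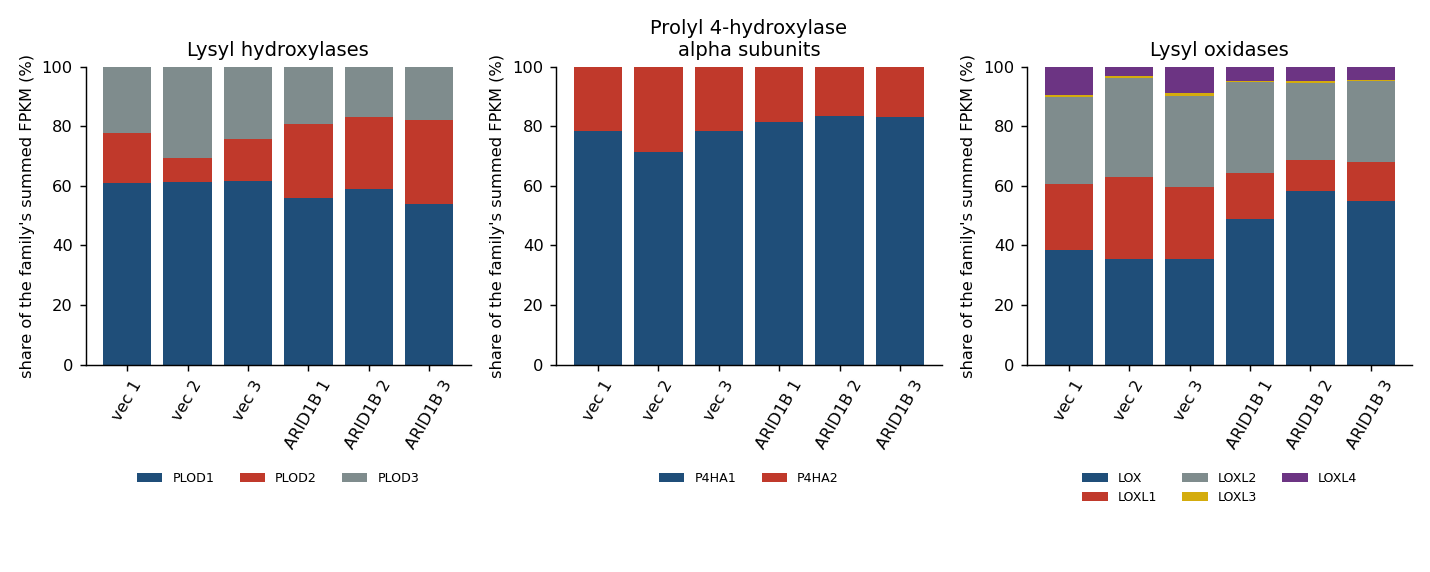
Share of each gene in the summed FPKM of its family, in percent, for the lysyl hydroxylases, the prolyl 4-hydroxylase alpha subunits and the lysyl oxidases in the 3 vector (vec) and 3 ARID1B libraries. The share of PLOD2 lies between 8.04% and 16.8% with the vector and between 24.4% and 28.0% with ARID1B, and that of LOX between 35.3% and 38.4% and between 48.9% and 58.3%.

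By mean level with the vector, the members ran from LOX (66.5 FPKM) through LOXL2 (56.1), PLOD1 (46.0), LOXL1 (44.8), P4HA1 (30.7), PLOD3 (19.8), LOXL4 (13.3), P4HA2 (9.45) and PLOD2 (9.14) to LOXL3 (1.58). LOXL2 and PLOD1, PLOD1 and LOXL1, P4HA1 and PLOD3, PLOD3 and LOXL4, LOXL4 and P4HA2, and P4HA2 and PLOD2 lay within the sum of their SDs, so these neighbors were not separated by the spread. With ARID1B the mean of PLOD2 (21.6 FPKM) lay above those of PLOD3, LOXL4 and P4HA2, and that of P4HA1 (48.8 FPKM) above those of PLOD1 and LOXL1. The order depends on the gene length behind the FPKM. The length that made the reads of LOX whole was 8412 bases, against 5102 bases for its longest GENCODE v29 transcript, and for PLOD1 the lengths were 8243 and 2940 bases. Scaled to the longest transcript, a choice made after seeing the data, LOXL2 came first with the vector at 152, before PLOD1 at 129 and LOX at 109.6, while with ARID1B LOX stayed first at 225 before LOXL2 at 191. On that scale LOX made up 27.6% to 31.4% of the lysyl oxidases with the vector, below LOXL2 at 39.1% to 42.2%, and 39.8% to 49.3% with ARID1B. The share of PLOD2 was 8.86% to 18.5% with the vector and 26.6% to 30.4% with ARID1B, and that of P4HA1 was 50.9% to 60.1% and 64.2% to 67.5%. The shares of PLOD1, PLOD2, PLOD3, P4HA1, P4HA2, LOX and LOXL1 separated the groups on both scales, and that of LOXL3 only in FPKM. Shares within a family are not separate results: that of P4HA2 is the remainder of that of P4HA1. A larger share of PLOD2 likewise lowers those of PLOD1 and PLOD3, whose own levels overlapped. How often such shares separate the groups in other families was not measured, so nothing is read from this list. The second scale multiplies each gene by 1 constant in all libraries, so it is no independent check of the first.

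Leaving out vector replicate 2 changed which members passed. Without it, PLOD2 (adjusted p = 0.0293 from limma) and LOX (adjusted p = 0.0371) passed on the higher side and LOXL4 (adjusted p = 0.0430) on the lower side. In that fit 3.14% of 10435 genes passed, 1.21% higher and 1.94% lower. With no vector replicate 2, 6 members were higher (PLOD1 in addition) and 3 lower (LOXL3 and LOXL4 in addition) without overlap. Of all genes 42.7% did not overlap in that comparison, 18.8% higher and 23.9% lower. No member passed when any other single library was left out. The fit without vector replicate 2 keeps vector replicates 1 and 3, and replicate 3 lay near a mixture with a weight of 83.2% on replicate 1. If it were such a mixture, these vector libraries would not be independent. The adjusted p and the shares without overlap given here could then overstate the separation.

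GC content moved with these differences. Over 10195 genes the log2 change correlated with the GC content of the longest transcript at a Spearman's rho of -0.55, a description over genes that are not independent, and at -0.26 without vector replicate 2. PLOD2 (34.4% GC, percentile 1.09), LOX (39.6%, percentile 15.1) and P4HA1 (40.9%, percentile 20.9) lay among genes of low GC content and LOXL1 (67.6%, percentile 99.2) among the highest, while LOXL2 (58.2%, percentile 81.8) was higher with ARID1B. Corrected for GC content and transcript length, the log2 change was 0.98 for PLOD2, 0.86 for LOX, 0.59 for P4HA1, 0.46 for LOXL2 and -0.18 for LOXL1. PLOD2 and LOX were thus somewhat below their uncorrected changes of 1.16 and 1.03, and LOXL1 was nearer 0 than its uncorrected -0.46. The part of GC content in these differences was not tested further.

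**Figure D3:**
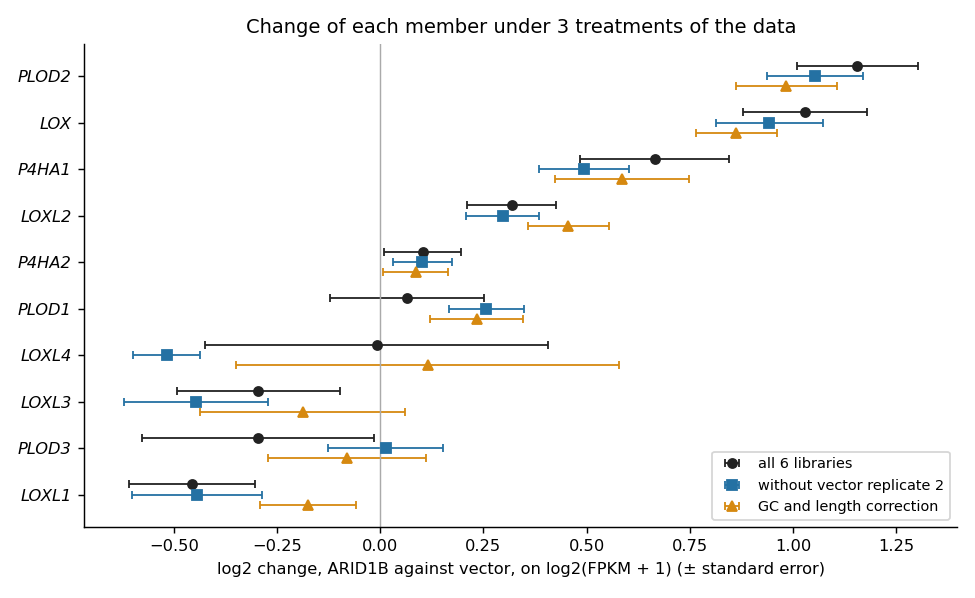
Log2 change of each member between ARID1B and vector on log2(FPKM + 1), with standard errors, for all 6 libraries (circles), without vector replicate 2 (squares) and with GC content and transcript length corrected for (triangles). PLOD2, LOX, P4HA1 and LOXL2 lie above 0 in each, and LOXL4 moves from -0.01 to -0.52 without vector replicate 2.

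The main substrates of these enzymes overlapped between the groups. COL1A1, a chain of type I collagen, stood at 837, 558 and 820.3 FPKM with the vector and at 602, 925 and 669 FPKM with ARID1B, with libraries of each group on both sides. COL1A2, the other chain, ranged from 347 to 626 FPKM and from 396 to 681 FPKM, and COL3A1 from 38.3 to 282 FPKM and from 125 to 262 FPKM. For each 100 FPKM of COL1A1 there were 8.96, 10.5 and 8.03 FPKM of LOX with the vector and 19.9, 16.1 and 21.1 FPKM with ARID1B, so this ratio did not overlap. The same ratio was 1.14 to 1.39 and 2.05 to 3.63 for PLOD2, and 4.12 to 4.24 and 5.79 to 7.37 for P4HA1. Set against COL3A1, the ratios of LOX overlapped (26.6 to 153 with the vector and 57.0 to 95.8 with ARID1B), since COL3A1 was far lower in vector replicate 2. Those of PLOD2 overlapped too (3.67 to 20.2 with the vector and 7.26 to 17.5 with ARID1B). The separation by ratio thus depends on the collagen gene used. ELN, which encodes elastin, was under 1 FPKM in all libraries (0.272 to 0.702 FPKM) and was not tested.

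**Figure D4:**
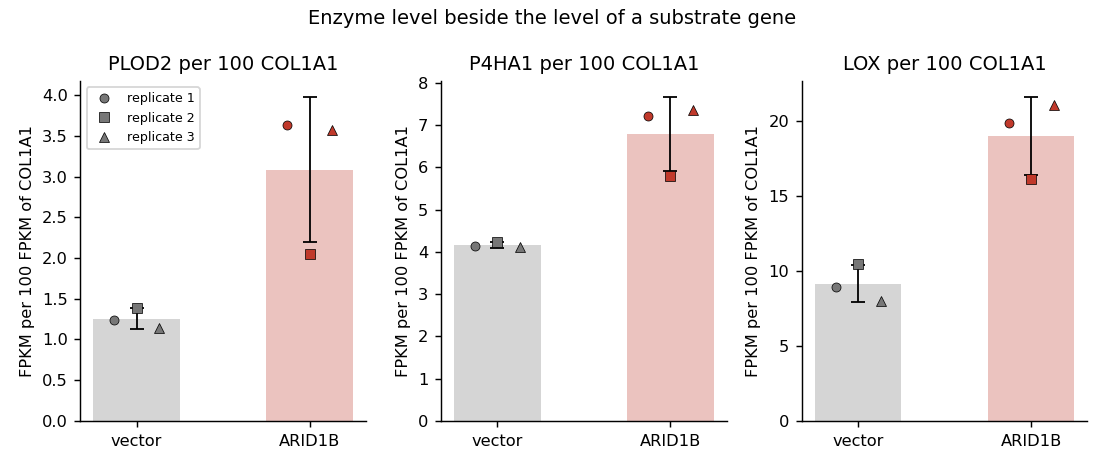
FPKM of PLOD2, P4HA1 and LOX for each 100 FPKM of COL1A1 in each library, with the mean and SD of 3 libraries. All ARID1B libraries lie above all vector libraries for each gene, for LOX at 16.1 to 21.1 against 8.03 to 10.5.

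Other genes of collagen maturation were listed with earlier results of these data known, and none passed the threshold. For the counts of direction below, all 10416 genes tested had 4963 positive and 5453 negative changes. Of 12 tested modifying enzymes and chaperones, 3 had a positive and 9 a negative change, and the median of -0.07 turned to 0.05 without vector replicate 2 and to 0.08 after the GC correction. FKBP14, a prolyl isomerase of the endoplasmic reticulum, was at 0.58 on the log2 scale (adjusted p = 0.345 from limma), and COLGALT2, a collagen galactosyltransferase, at 0.28 (adjusted p = 0.424). P4HA3, the remaining alpha subunit, was listed at 0.501 to 1.16 FPKM and was not tested. Of 6 tested genes of procollagen processing and secretion, 4 were positive, and the median of 0.08 turned to -0.07 without vector replicate 2. PCOLCE, which enhances removal of the procollagen C-propeptide, was lower without overlap (85.1, 51.6 and 83.5 FPKM with the vector and 30.0, 47.9 and 33.3 FPKM with ARID1B), which limma put at -0.96 on the log2 scale (adjusted p = 0.327). SEC24D, a coat protein of secretory vesicles, was at 0.20 (adjusted p = 0.715 from limma).

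Of 7 tested fibrillar collagens, 5 had a positive change (median 0.32, and -0.04 without vector replicate 2). COL11A1 (0.92, adjusted p = 0.392 from limma) and COL5A2 (0.59, adjusted p = 0.515), chains of minor fibrillar collagens, were higher without overlap. Both were lowest in vector replicate 2, and without it their log2 changes were 0.63 and 0.29. Of 12 tested genes of elastic fibers 8 were negative, against 5453 of all 10416 genes, with a median of -0.30 that was -0.61 without vector replicate 2 and -0.11 after the GC correction. MFAP2, a microfibril protein, was at -0.67 on the log2 scale (adjusted p = 0.301 from limma) and LTBP2, which binds fibrillin, at -0.78 (adjusted p = 0.306), both lower without overlap. Matrix proteins that bind or activate LOX split evenly, 2 positive and 2 negative. FN1, which encodes fibronectin, was at -0.30 (adjusted p = 0.736) and FMOD, which encodes fibromodulin, at 0.24 (adjusted p = 0.803) from limma. Of 6 tested genes of copper delivery, 4 were positive (median 0.27), with the copper importer SLC31A1 at 0.39 (adjusted p = 0.390 from limma) and CCS, a copper chaperone, at -0.34 (adjusted p = 0.387).

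Hypoxia inducible genes had 12 positive and 4 negative changes among 16 tested (median 0.25), and none passed. Over all 10416 genes tested, 4963 changes were positive and 5453 negative (median -0.02). VEGFA, an angiogenic growth factor, stood at 2.40, 1.42 and 2.20 FPKM with the vector and at 2.94, 5.16 and 3.36 FPKM with ARID1B, which limma put at 0.67 on the log2 scale (adjusted p = 0.382). NDRG1 was at 0.44 (adjusted p = 0.425 from limma), and CA9, a carbonic anhydrase often read as a marker of hypoxia, was under 0.1 FPKM in all libraries (at most 0.0870 FPKM). TGF-beta response genes had 8 positive and 4 negative changes among 12 tested (median 0.30), and none passed. TGFB2, a TGF-beta ligand, stood at 2.83, 0.549 and 2.29 FPKM with the vector and at 7.79, 5.82 and 8.13 FPKM with ARID1B. Limma put TGFB2 at 1.60 on the log2 scale (adjusted p = 0.300) and TGFB1, another ligand, at -0.55 (adjusted p = 0.444). The part of hypoxia or TGF-beta signaling in the levels of the members was not tested.

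**Figure D5:**
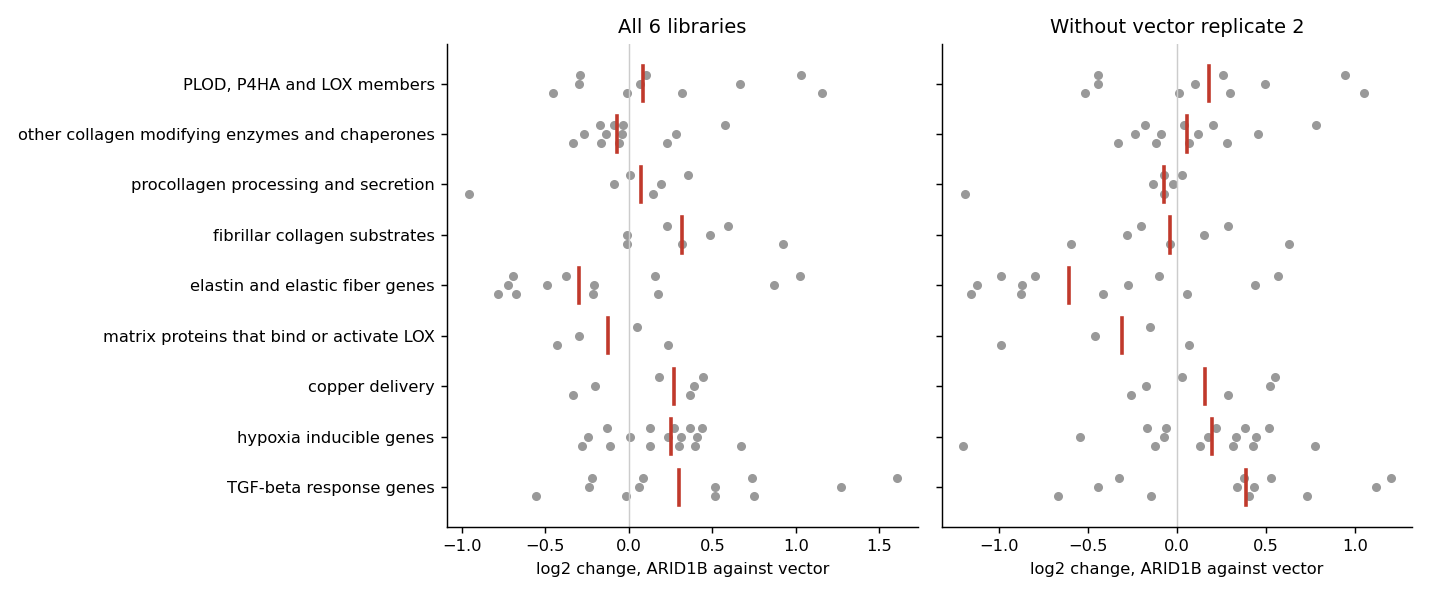
Log2 change between ARID1B and vector of the members and of the tested genes of 8 lists (gray points, spread vertically for visibility), each list's median drawn as a red line, for all 6 libraries and without vector replicate 2. The median of fibrillar collagens moves from 0.32 to -0.04, and that of elastic fiber genes from -0.30 to -0.61.

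Over the 6 libraries, the tested genes most like PLOD2 by Pearson's r on log2(FPKM + 1) were KIAA1468 (r = 0.9995), ITGB3 (0.997) and ATR (0.996). ITGB3 is an integrin chain and ATR a kinase of the DNA damage response. Most like LOX were CXCL1 (0.999), a neutrophil chemokine, ADAMTS5 (0.995), a protease of proteoglycans, and LINC00641 (0.994). CXCL1 (0.228 to 0.698 FPKM) and ADAMTS5 (0.476 to 0.943 FPKM) were under 1 FPKM in all vector libraries. Both entered the test only through their levels in the ARID1B libraries. Pearson's r does not measure the size of a change, and the log2 change of KIAA1468 was 0.26, against 1.16 for PLOD2. Of 10394 genes compared, 149 had an r over 0.95 with PLOD2 and 112 with LOX. Among the members, PLOD2 and LOX were at 0.96 with each other, LOX and P4HA1 at 0.95, and LOX and LOXL1 at -0.91, all as descriptions over 6 libraries. Each r in this paragraph spans both groups, so the difference on which the members were chosen enters it. Such an r does not show that 2 genes vary together within a group.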

How the data were processed

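The labels gave each library its group and replicate number. For 57232 genes the authors deposited FPKM values and no counts. TopHat2 2.0.11, HTSeq 0.5.3p9, DESeq2 and hg19 appear in the submitters' processing notes without their roles. Genes whose mean reached 1 FPKM (10416) were compared on log2(FPKM + 1), a scale that understates changes of low genes, by limma 3.58.1 in R 4.3.3 with a trended variance, and p-values were adjusted over all of them by the Benjamini-Hochberg method. The fit was tested on simulated data.

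From the FPKM steps, reads whole within 0.002 were recovered for 99.9% of these genes, and the median gene held 2282 to 3348 reads per library. The gene length used was the smallest that made the reads whole, so reads and length are both too small where a gene's reads share a divisor. p-values treat the libraries of a group as independent.

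The members and lists were chosen with earlier results of these data known. Genes named are the members, ARID1B, the list genes past the threshold (where a list had none, the 2 with the smallest p), the 3 genes most like each of the 2 members that differed most, and COL1A1, COL1A2, COL3A1, ELN, CA9 and VEGFA. A gene of the rule and of the TGF-beta list is not reported here and was left out of that list. The cell type markers KRT19, LUM, S100A4, VIM, LMOD1, CNN1, SMTN, MYH11 and MYOCD were named after their values were seen. So were P4HB, P4HA3, HK2, LDHA, BNIP3L, MXI1, PDK1, KDM3A, the genes passing only without vector replicate 2 and genes whose exons overlap a member. The alternatives varied the pseudocount (0.1), the low-value filter (none, or 5 FPKM), the scaling (median-ratio, quantile), the variance trend, a block for the replicate number and the libraries kept. Others corrected for GC content and length by splines (5 degrees of freedom) or applied voom to recovered reads. Recovery and plots used Python 3.11.15 and matplotlib 3.10.9.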

Additional observations from a re-analysis of the deposited data

How the results depend on the processing

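PLOD2, LOX, P4HA1, P4HA2, LOXL2, LOXL1 and LOXL3 kept their direction in all alternatives run, from 0.98 to 1.24 for PLOD2 and from 0.86 to 1.12 for LOX. All of these but LOXL3 did not overlap between the groups. For them, leaving out libraries or varying the pseudocount, filter, variance trend or block could not change the direction. Only the rescalings, the GC and length correction and voom could have done so. LOXL4 changed sign in 8 of 16, and PLOD1 and PLOD3 in 1 each. Members past the threshold numbered 0 in all settings but the one without vector replicate 2 (3 members). The number of genes past the threshold was 3 with all libraries and from 0 to 328 with 1 library left out. It was 0 with no filter on low values, without both libraries numbered 3 and with the replicate number as a block, 1 under median-ratio rescaling or voom, and 5 after the GC and length correction. Genes of the pathway lists past it numbered 0, and 0 to 6 with 1 library left out (6 without vector replicate 2). The median of the members, 0.08, ranged from 0.071 to 0.20 with 1 library left out and was 0.17 both without the libraries numbered 3 and after the GC and length correction. With 1 library left out, the log2 change ranged from -0.20 to 0.12 for COL1A1, from -0.28 to 0.15 for COL1A2, from -0.60 to 0.83 for COL3A1 and from -0.16 to 0.46 for FMOD, so none of these has a direction. COL1A1 was at 0.13 and COL1A2 at 0.15 without both libraries numbered 3, COL1A1 at 0.092 after the GC and length correction and COL1A2 at 0.21 under quantile normalization. ARID1B lost its call with no filter, with the block, without both libraries numbered 3 and on leaving out any one library except vector replicate 2. Same-numbered libraries deviated in opposite directions (r of -0.46, -0.43 and -0.17 for numbers 1, 2 and 3), so the numbers were not taken as pairs, and under the block the adjusted p of limma was 0.799 for PLOD2 and 0.811 for LOX. The causes of these shifts were not tested. Levels per kilobase of the longest transcript put LOX at 0.85 times PLOD1 with the vector, against 1.44 times in FPKM.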

Other observations

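Without vector replicate 2, 6 genes of the pathway lists passed the threshold of limma, in a fit where 3.14% of 10435 genes did. These 6 genes were named after their values were seen. The 8 lists held 12, 6, 7, 12, 4, 6, 16 and 12 tested genes, in the order given above. The vector libraries kept in this fit may not be independent, as stated above. PCOLCE (log2 change -1.19, adjusted p = 0.0472) and MFAP2 (-0.80, adjusted p = 0.0423), both of matrix assembly, were lower with ARID1B, as were the hypoxia inducible genes CA12 (-0.55, adjusted p = 0.0306) and DDIT4 (-1.20, adjusted p = 0.0430). TGFB2 (1.20, adjusted p = 0.0326) and IGFBP3 (1.12, adjusted p = 0.0423) were higher. With all 6 libraries, IGFBP3 (0.74, adjusted p = 0.509 from limma) and CA12 (-0.28, adjusted p = 0.694) overlapped between the groups. DDIT4, a stress-induced inhibitor of mTOR signaling, stood at 15.1, 1.05 and 13.2 FPKM with the vector and at 4.63, 7.42 and 4.96 FPKM with ARID1B, and its log2 change was -0.24 with all 6 libraries, where it did not pass. The 16 tested genes of the hypoxia list had a median log2 change of 0.20 in the fit without vector replicate 2. The highest were LDHA at 0.78, VEGFA at 0.52 and HK2 at 0.45, which did not pass. BNIP3L (-0.13), MXI1 (-0.17), PDK1 (-0.07) and KDM3A (-0.06) were negative, besides CA12 and DDIT4. LDHA was highest in vector replicate 2 (67.8 FPKM), and its log2 change was 0.36 with all 6 libraries. Outside these lists, the lung fibroblast marker S100A4 also passed in it (-0.69, adjusted p = 0.0472), at 8.26, 9.55 and 8.89 FPKM with the vector and 5.63, 4.23 and 5.02 FPKM with ARID1B.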
